A study of Homo sapiens with 12 samples.

Results

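MiR-221 and miR-222 are a pair of microRNAs (miRNAs) encoded side by side on the X chromosome, and their mature arms were examined in differentiated Mono Mac 6 (MM6) cells with and without 5-lipoxygenase (5-LO). Every mature arm of miR-221 or miR-222 listed in the sequencing tables was taken by its name, which gave 4 arms (miR-221-3p, miR-221-5p, miR-222-3p and miR-222-5p) of 314 mature miRNAs and of 1380 noncoding RNAs listed in all. The rule uses names and no measured value.

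MM6 is an established human monocytic cell line. Small RNA was sequenced from wild-type MM6 cells and from 5-LOΔ MM6 cells, which are labelled ALOX-5 -/- and in which the 5-LO gene ALOX5 had been cut with lentiviral CRISPR/Cas9. All cells, of both genotypes, had received calcitriol (50 nM) together with TGF-β (1 ng/mL) for 72 h according to the labels, to differentiate them. They were left without further treatment or stimulated with 1 µg/mL lipopolysaccharide (LPS) for the last 6 h before harvest. The 4 groups hold 3 libraries each, 12 in all. The knockout cells are single-cell clones that had been transduced and selected with puromycin, a pair of clones was used in the study, the labels do not say which clone a library came from, and the labels name no vector control, so knockout, clone and transduction cannot be told apart. The ALOX5 transcript is not measured by small RNA sequencing, and the genotype was therefore not checked from these data.

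The tables give 1 mean of normalized counts per group and no values of single libraries, so no SD and no test from library values could be computed here for abundant miRNAs, and the authors' own p-values were not used. Means of the pair are given with a counting SE, except those of miR-222-5p, and their ratios with a 95% counting interval. Both cover the random sampling of reads alone and neither the spread between cultures nor amplification of the same molecule. Values of other miRNAs are given without an interval. The reads behind the means of all noncoding RNA entries were estimated at 3.39e+07 for wild-type, 3.65e+07 for 5-LOΔ, 3.35e+07 for wild-type with LPS and 3.00e+07 for 5-LOΔ with LPS, each over 3 libraries and with precursor entries counting reads of mature entries again. The tables without and with LPS were normalized separately. Genotypes were thus compared on the deposited scale within a table, and LPS was compared with no LPS after each mean had been expressed as a percent of the summed mature miRNAs of its own group. The miR-3607 entries lie on an annotated snoRNA and were left out of that sum, since they made up 43.4%, 35.8%, 42.0% and 38.5% of it in wild-type, 5-LOΔ, wild-type with LPS and 5-LOΔ with LPS.

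The labelled cell type was checked with miRNA markers. All 6 myeloid markers were above 0 in every group. They made up 5.42% of the mature sum without miR-3607 in wild-type and 6.33% in 5-LOΔ. With LPS they made up 6.14% in wild-type and 5.63% in 5-LOΔ. MiR-21-5p was the most abundant in every group, at 4.31% in wild-type and 5.34% in 5-LOΔ. The shares of miR-223-3p, miR-223-5p, miR-142-3p and miR-142-5p were lower in 5-LOΔ than in wild-type, and lower in wild-type with LPS than without. Between wild-type and 5-LOΔ, miR-223-3p went from 0.162% to 0.102% and miR-142-5p from 0.558% to 0.542%. Those of miR-21-5p and miR-22-3p were higher in both comparisons, so miR-21-5p set the direction of the summed share. The lymphoid marker miR-150-5p, the 5 erythroid names including miR-451a, the hepatocyte marker miR-122-5p and the 4 muscle markers were not listed in either table. The epithelial marker miR-200c-3p had means of 1.19 in wild-type and 1.00 in wild-type with LPS and was listed at 0 in both 5-LOΔ groups, and the other 4 epithelial markers were not listed. The endothelial marker miR-126-5p was listed with LPS alone, at 1.24 in wild-type and 0.513 in 5-LOΔ, and miR-126-3p was not listed. The 4 fibroblast and mesenchymal markers summed to 0.135%, 0.0984%, 0.123% and 0.0735% of the same sum in the same order of groups, mostly as miR-143-3p. The part of these markers in the values of miR-221 and miR-222 was not tested. In such bulk RNA, fewer cells of a type and less RNA per cell cannot be told apart.

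A miRNA hairpin is cut by Dicer into a duplex of a 5p and a 3p strand, and one strand is usually kept in Argonaute while the other is lost. The strand that is kept pairs through its seed, a short stretch near its 5′ end, with sites in the 3′ untranslated region (3′UTR) of target mRNAs. MiR-221-3p and miR-222-3p are the usually kept strands of their hairpins and share a seed. They are known to lower CDKN1B (p27), an inhibitor of the cell cycle, and KIT, the receptor of stem cell factor, and in macrophages they have been tied to tolerance, the reduced response to repeated LPS.

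The annotation of GRCh37 (the hg19 build) places both hairpins on the reverse strand of the X chromosome, MIR221 at chrX:45605585-45605694 and MIR222 at chrX:45606421-45606530. Each hairpin is 110 bp long, the gap between them is 726 bp, and both lie in an intron of the long noncoding RNA gene MIR222HG (chrX:45604638-45629677, reverse strand), of whose 4 annotated transcripts 1 spans them and 0 overlap them with an exon. RefSeq (table of GRCh38.p14) held mature sequences for 3 of the 4 arms, which are shown because the shared seed defines the pair. Capitals mark the seed, bases 2 to 8.
miR-221-3p: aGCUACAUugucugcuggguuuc
miR-222-3p: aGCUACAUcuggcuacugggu
miR-222-5p: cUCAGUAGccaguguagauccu
The 3p arms, of 23 and 21 nt, were identical over their first 8 bases and at 11 of 21 positions when aligned from the 5′ end without gaps. They were the 2 names of 2370 in the RefSeq table with the seed GCUACAU. On GRCh37, miR-221-3p matched chrX:45605608-45605630, miR-222-3p chrX:45606442-45606462 and miR-222-5p chrX:45606479-45606500, all on the reverse strand. The seed of miR-222-5p differs from that of the 3p arms.

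Matches to the shared seed in the known targets are shown with their surroundings, since these are the sites that either 3p arm could pair with. The motif ATGTAGC, the reverse complement of the seed, was searched on the transcript strand of the canonical 3′UTRs and is in capitals.
CDKN1B, chr12:12874153-12874177: aagcgttggATGTAGCattatgcaa
CDKN1B, chr12:12874226-12874250: ttaccttttATGTAGCacataaact
KIT, chr4:55605744-55605768: tggattcttATGTAGCaggaaataa
KIT, chr4:55606673-55606697: aatattgaaATGTAGCaataatgtc
The 3′UTR of CDKN1B (1342 nt) held 2 matches and that of KIT (2158 nt) held 2, all on the forward strand of GRCh37 and each followed by an A. The motif was present in 8.05% of 19392 canonical 3′UTRs and in 7.28% of the 3242 with a length of 1300 to 2200 nt. A match is a description of the sequence, and neither mRNA was measured here.

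MiR-221-3p was among the abundant miRNAs of MM6 cells and miR-222-3p was lower in every group. The authors' mean normalized count of miR-221-3p was 557 (counting SE 13.4) in wild-type, 611 (14.7) in 5-LOΔ, 567 (13.8) in wild-type with LPS and 509 (13.5) in 5-LOΔ with LPS. These means stood at ranks 20, 22, 18 and 22 of the 242, 249, 233 and 219 mature miRNAs above 0. The corresponding means of miR-222-3p were 210 (counting SE 8.24), 237 (9.15), 315 (10.3) and 266 (9.72), at ranks 33, 35, 29 and 33. Both 3p arms thus stayed within a narrow band of ranks, and miR-222-3p was highest in wild-type cells with LPS, both as deposited, in separately scaled tables, and as a share of mature miRNAs.

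The 5p arms were far lower. MiR-221-5p, the strand usually lost, had means of 10.5 (counting SE 1.85) in wild-type, 11.3 (2.00) in 5-LOΔ, 22.4 (2.74) in wild-type with LPS and 21.6 (2.77) in 5-LOΔ with LPS. MiR-222-5p had means of 0.800, 0.499, 0 and 1.33 in the same order. Because whole reads were scaled by a size factor in each library before averaging, low means are sums of fixed steps, from which the reads of the 3 libraries were recovered. The values of miR-222-5p came from 3 reads of 1 wild-type library, 2 reads of 1 5-LOΔ library and 2 reads in each of 2 5-LOΔ libraries with LPS, and no read was left in the other libraries. Totals of 1 read were rare in these tables, at 13 values of mature miRNAs against 146 with totals of 2 reads, so a value listed at 0 does not show that no read was sequenced. The counting intervals of its log2 ratio included 0 between genotypes without LPS (-3.67 to 2.30) and between LPS and no LPS in 5-LOΔ cells (-1.28 to 4.31), and no ratio was formed with the mean of 0.

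**Figure D1:**
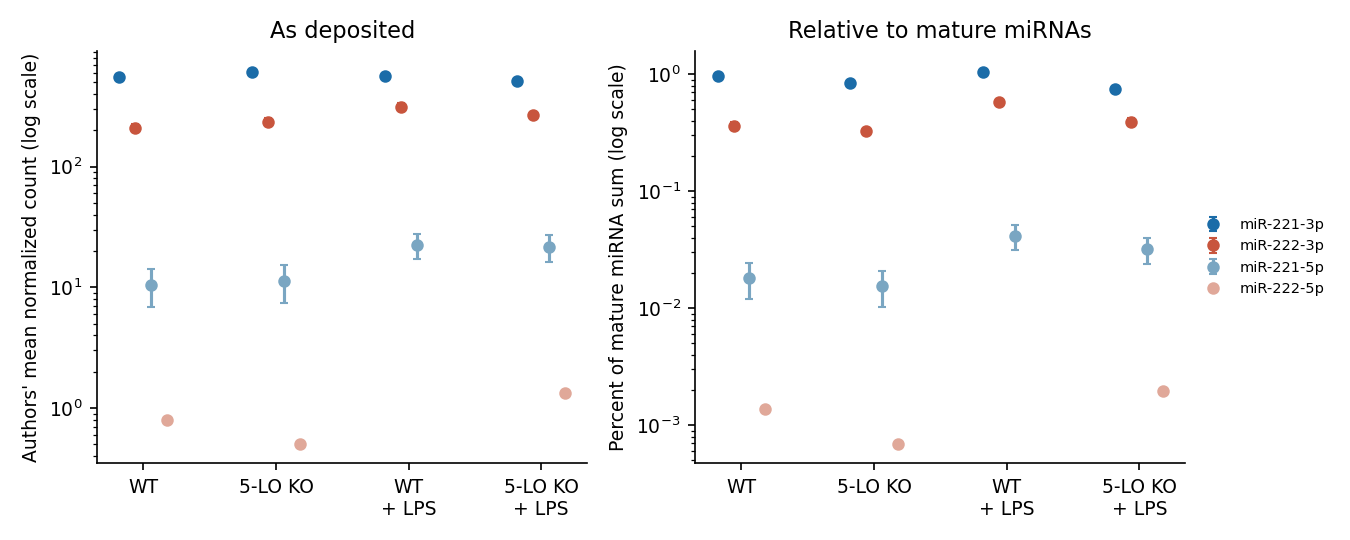
Mean normalized count (left) and percent of the mature miRNA sum without miR-3607 (right) of the 4 arms in the 4 groups, on log axes, where points are the authors' means of 3 libraries and bars are 95% counting intervals (not drawn for miR-222-5p, whose mean of 0 in wild-type with LPS is absent). The 3p arms lie between 210 and 611 in all groups, and miR-221-5p lies near 11 without LPS and near 22 with LPS.

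The nearest miRNAs in the order of abundance changed between groups. In wild-type cells, miR-196b-5p (563) and miR-93-5p (539) were the nearest to miR-221-3p, and neither differed from it beyond counting error. MiR-222-3p was not separated from miR-30e-5p (206) and let-7e-5p (197) below it, whereas miR-24-3p (265) was higher beyond counting error. In 5-LOΔ cells, miR-221-3p could not be separated from miR-19b-3p (642) and miR-25-3p (581), nor miR-222-3p from miR-24-3p (261), miR-320a (251) and let-7d-5p (218). With LPS, the nearest miRNAs within counting error were miR-98-5p (604) for miR-221-3p and miR-148a-3p (313) for miR-222-3p in wild-type cells. In 5-LOΔ cells with LPS they were miR-93-5p (499) for miR-221-3p and miR-1248 (268), miR-103a-3p (258), miR-146b-3p (243) and miR-24-3p (241) for miR-222-3p.

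In each comparison, shares over mature miRNAs were taken over those with a mean of at least 10 in either of the 2 groups compared. Some of these reached that mean through the group where they were higher alone, so the shares are partly set by the change itself. With the average of both means at 10 or more, an alternative added after the data were seen, the shares higher and lower in 5-LOΔ cells were 23.4% and 4.50% without LPS and 18.5% and 4.63% with LPS, and those higher and lower with LPS were 8.26% and 4.59% in wild-type and 7.27% and 17.3% in 5-LOΔ cells.

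The first comparison asks how loss of 5-LO, a protein that binds Dicer, goes with the level of the pair. Without LPS, no arm with a mean of at least 10 differed by 1.5-fold or more between genotypes, while 23.3% of 116 mature miRNAs with such a mean were at least 1.5-fold higher and 4.31% at least 1.5-fold lower in 5-LOΔ cells (27 and 5 miRNAs, a balance that became 12 and 12 when groups were scaled by their median ratio). The log2 ratio of 5-LOΔ to wild-type was 0.13 for miR-221-3p (95% counting interval 0.036 to 0.23) and 0.17 for miR-222-3p (0.019 to 0.33). That of miR-221-5p was 0.11 (-0.60 to 0.81), and its interval includes no change. The median over the 116 mature miRNAs was 0.21, above both 3p arms. The sign of these ratios depends on the scaling, because with equal sums of mature miRNAs without miR-3607 they became -0.19 for miR-221-3p, -0.15 for miR-222-3p and -0.22 for miR-221-5p.

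With LPS, both 3p arms were lower in 5-LOΔ than in wild-type cells. The log2 ratio was -0.15 for miR-221-3p (95% counting interval -0.26 to -0.052) and -0.24 for miR-222-3p (-0.38 to -0.10), and that of miR-221-5p was -0.053 (-0.55 to 0.45). None of the 3 arms with a mean of at least 10 reached 1.5-fold, beside 19.1% of 110 mature miRNAs that were higher and 4.55% that were lower by that measure (21 and 5 miRNAs, which turned to 11 and 19 with the median ratio). The median over the 109 mature miRNAs with a ratio was 0.13 on this scale, so both 3p arms lay below it. They were lower under each of the 3 other scalings as well, at up to -0.48 for miR-221-3p and -0.57 for miR-222-3p with equal sums of mature miRNAs without miR-3607.

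The genotype difference with LPS minus that without LPS was -0.29 for miR-221-3p (95% counting interval -0.43 to -0.15) and -0.42 for miR-222-3p (-0.63 to -0.21) on the log2 scale. For miR-221-5p it was -0.16 (-1.02 to 0.71). With equal sums of all means it was -0.18 for miR-221-3p, -0.31 for miR-222-3p and -0.055 for miR-221-5p. Both 3p intervals exclude 0 for counting error, and the spread between cultures, which could not be measured for these arms, is not in them. Over 100 mature miRNAs with a mean of at least 10 in all groups, the median difference was -0.060 and most values lay between -0.43 and 0.43 (the 10% and 90% quantiles). Of these miRNAs, 24 had a lower difference than miR-221-3p and 12 a lower one than miR-222-3p, so differences of this size were not rare.

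**Figure D2:**
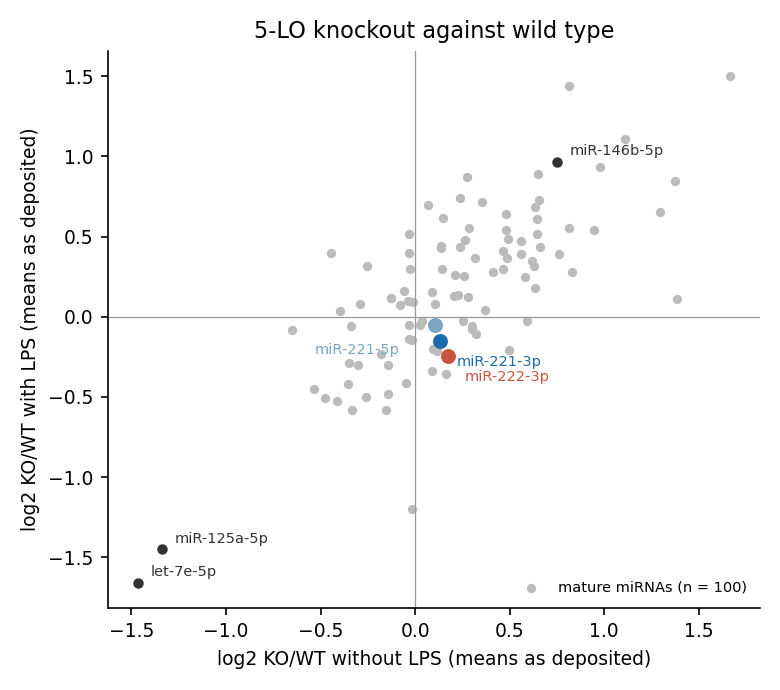
Log2 ratio of 5-LOΔ to wild-type without LPS (horizontal) and with LPS (vertical) from the means as deposited, with 1 point for each of 100 mature miRNAs and named points for the arms of the pair, for let-7e-5p and miR-125a-5p, and for miR-146b-5p. The 3 arms lie close together near 0, to the right of it without LPS (0.11 to 0.17, a sign that turns under other scalings) and under it with LPS (-0.24 to -0.053).

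The next comparison asks how LPS goes with the level of the pair. In wild-type cells, miR-222-3p made up 0.361% of the mature sum without LPS and 0.582% with LPS, a 1.61-fold difference (95% counting interval 1.46 to 1.78, log2 0.69). MiR-221-5p went from 0.0181% to 0.0415%, a log2 ratio of 1.19 (0.59 to 1.80). MiR-221-3p, at 0.961% without LPS, had a log2 ratio of 0.12 (0.028 to 0.22). Of the 3 arms with a mean of at least 10, 2 were thus at least 1.5-fold higher with LPS, beside 8.04% of 112 mature miRNAs, and none was lower by that measure, beside 6.25% (9 and 7 miRNAs, or 11 and 3 with the median ratio). For miR-221-5p this is a ratio of means whose libraries overlapped, as described with its recovered reads. The median log2 ratio over mature miRNAs was -0.17.

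In 5-LOΔ cells, miR-221-3p and miR-222-3p lay on opposite sides of 0. MiR-222-3p went from 0.325% to 0.392% of the mature sum, a log2 ratio of 0.27 (95% counting interval 0.12 to 0.42). MiR-221-3p went from 0.840% to 0.751%, a log2 ratio of -0.16 (-0.26 to -0.061) that came to -0.00063 when groups were scaled by their median ratio. MiR-221-5p went from 0.0156% to 0.0318%, which was 2.05-fold (1.33 to 3.14). That interval covers counting alone, and the spread between libraries is described below. It was the 1 arm of 3 with a mean of at least 10 that passed 1.5-fold, beside 7.76% of 116 mature miRNAs that were higher and 20.7% that were lower (9 and 24 miRNAs, or 13 and 12 with the median ratio). The median log2 ratio over mature miRNAs was -0.19 here. The comparisons by genotype and by LPS use the same 4 means and are not independent of each other.

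**Figure D3:**
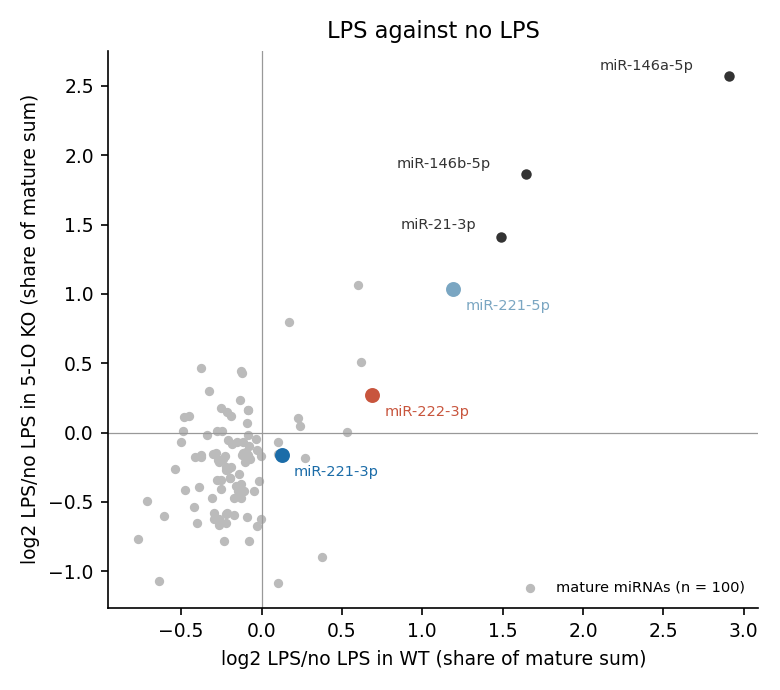
Log2 ratio of LPS to no LPS in wild-type (horizontal) and 5-LOΔ cells (vertical), from shares of the mature miRNA sum without miR-3607, with 1 point for each of 100 mature miRNAs. MiR-221-5p (1.19 and 1.03) and miR-222-3p (0.69 and 0.27) lie above most of the cloud in both genotypes, and miR-221-3p (0.12 and -0.16) lies to the right of most of it in wild-type cells and close to the median (-0.19) in 5-LOΔ cells.

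The ratio of the pair's 3p arms within a group does not depend on how groups are scaled. The ratio of miR-222-3p to miR-221-3p was 0.376 in wild-type (95% counting interval 0.344 to 0.412) and 0.387 in 5-LOΔ cells (0.354 to 0.423). With LPS it was 0.556 in wild-type (0.513 to 0.602) and 0.522 in 5-LOΔ cells (0.478 to 0.570). The intervals without and with LPS did not overlap in either genotype, whereas those of the genotypes overlapped in both conditions. The ratio was 1.48-fold higher with LPS in wild-type cells (log2 0.56, 0.39 to 0.74) and 1.35-fold higher in 5-LOΔ cells (log2 0.43, 0.25 to 0.61). The change in 5-LOΔ minus that in wild-type cells was -0.13 (-0.38 to 0.12), which gives no separation of the genotypes. All of these intervals cover counting alone, and the spread between cultures could not be measured for the 3p arms.

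The ratio of the arms of the miR-221 hairpin differed with LPS by more than counting error, but rests on the few reads of the 5p arm, whose libraries varied more than counting gives. The ratio of miR-221-3p to miR-221-5p was 53.0 in wild-type and 54.0 in 5-LOΔ cells, and 25.3 and 23.6 with LPS. The 5p arm accordingly made up 1.85% and 1.82% of the reads of both arms without LPS, and 3.81% and 4.07% with LPS. The log2 change of the 3p to 5p ratio was -1.07 in wild-type (95% counting interval -1.68 to -0.46) and -1.20 in 5-LOΔ cells (-1.82 to -0.57). These intervals leave out the spread of miR-221-5p between libraries, which is given with its recovered reads and with which no separation of the shift from 0 is shown in either genotype. Its difference between genotypes was -0.13 with a counting SE of 0.45, which gives no separation of the genotypes.

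**Figure D4:**
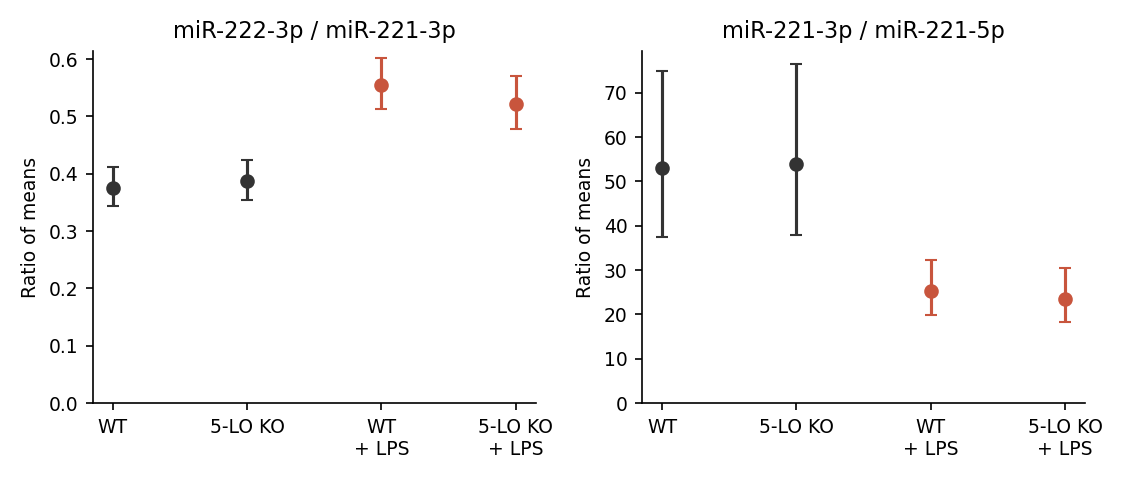
Ratio of miR-222-3p to miR-221-3p (left) and of miR-221-3p to miR-221-5p (right) in the 4 groups, as ratios of the authors' means with 95% counting intervals. With LPS the left ratio is higher (0.556 and 0.522 against 0.376 and 0.387) and the right ratio lower (25.3 and 23.6 against 53.0 and 54.0) in both genotypes.

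Other hairpins were compared in the same way. Of 21 listed pairs of arms, the miR-3607 entries on the snoRNA among them, with both arms at a mean of at least 5 in all groups, a set chosen after the values were seen, the log2 change with LPS of the less to the more abundant arm had a median of 0.039 in wild-type and -0.12 in 5-LOΔ cells. The miR-221 hairpin stood at rank 3 in both genotypes, with a 5p share relative to 3p that was 2.10-fold and 2.29-fold higher with LPS. Above it were miR-146b (log2 2.72 and 3.12), whose 3p arm reached 154 and 243 normalized counts with LPS, and miR-21 (1.22 and 1.59), whose 3p arm went from 62.0 to 162 in wild-type and from 71.7 to 178 in 5-LOΔ cells. MiR-181a followed (0.79 and 0.95). A value above 0 in both genotypes was found for 5 of the 21 hairpins.

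**Figure D5:**
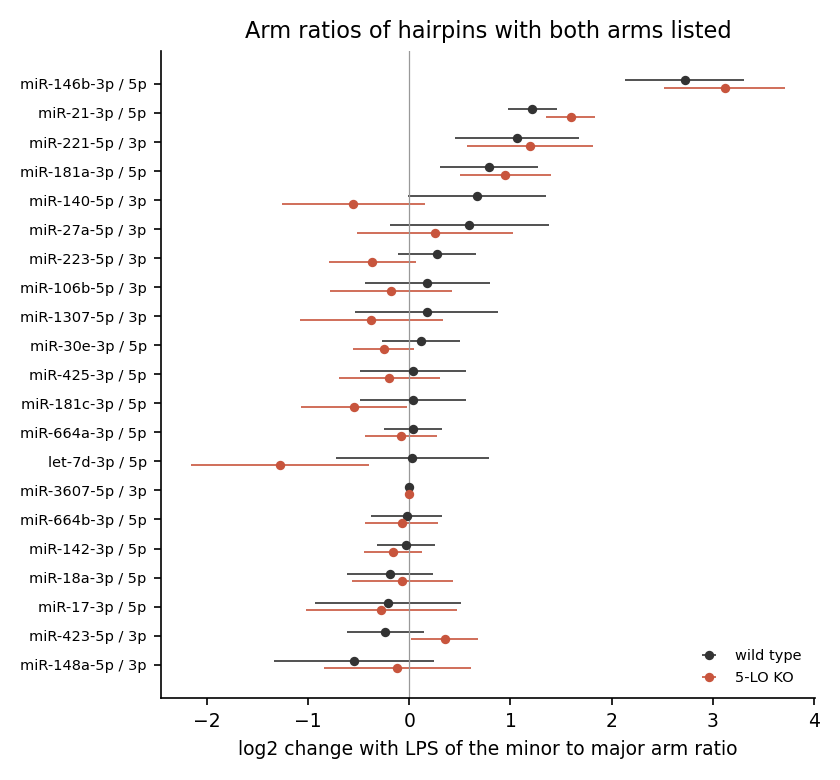
Log2 change with LPS of the ratio of the less to the more abundant arm of 21 hairpins in wild-type (dark) and 5-LOΔ cells (red), where points are from the authors' means and lines are 95% counting intervals. The miR-221 hairpin (1.07 in wild-type cells) stands under miR-146b (2.72) and miR-21 (1.22), and its interval, which covers counting error and not the spread between libraries, lies above 0 in both genotypes.

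The recovered reads of miR-221-5p show how single libraries contribute. In wild-type cells the libraries held 23, 3 and 9 reads, from the highest to the lowest size factor, which are 18.4, 2.95 and 10.2 normalized counts (mean 10.5, SD 7.73). In 5-LOΔ cells they held 23, 8 and 6 reads, or 17.2, 8.47 and 8.28 normalized counts (mean 11.3, SD 5.11). The genotypes overlapped, with p = 1 in an exact two-sided permutation test over the 3 and 3 libraries, for which 0.10 is the smallest p possible. For miR-221-5p, 1 library decided the sign of their log2 ratio, which was 0.78 without the highest wild-type library, -0.34 without the lowest and -0.33 without the highest 5-LOΔ library. With LPS the recovery was not unique, and among means of 20 to 40, where miR-221-5p then lay, 58.8% of values moved off their printed value in wild-type and 70.7% in 5-LOΔ cells still came out whole, so the library values with LPS are uncertain. The wild-type mean allowed 3 combinations of reads, with totals of 81, 77 and 73, and in these the lowest library had 4.66, 8.40 or 12.1 normalized counts and the highest 32.6, 31.6 or 33.1, with SDs of 15.4, 12.3 and 10.5. The 5-LOΔ mean allowed 2 combinations, of 28.4, 19.2 and 17.2 or of 4.61, 3.59 and 56.6 normalized counts, with SDs of 5.99 and 30.3. In every combination the lowest wild-type library with LPS was below the highest wild-type library without it, so the libraries of these groups overlapped. The 5-LOΔ libraries with LPS were either all at or above the highest without LPS (17.2 in both) or overlapped them, depending on the combination. With these SDs, the log2 ratio of LPS to no LPS in wild-type cells, 1.19, had an SE over libraries of 0.84, 0.76 or 0.73. In 5-LOΔ cells the ratio of 1.03 had an SE of 0.44 or 1.23. With 3 libraries a group these SEs are descriptions, and no separation from 0 is read from them. Leaving out single libraries, an alternative added after the data were seen, moved the ratio in wild-type cells between 0.75 (without the lowest library without LPS) and 1.87 (without the highest). In 5-LOΔ cells it lay between 0.79 and 1.47 for one combination, but for the other it turned to -1.36 without the library of 56.6 normalized counts.

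Among mature miRNAs with a mean of 5 to 20 and a unique recovery (in wild-type cells with LPS up to a mean of 10 alone), the median coefficient of variation over libraries was 26.7% in wild-type and 39.7% in 5-LOΔ cells, and 41.0% and 36.8% with LPS, beside 31.4%, 33.6%, 38.2% and 34.2% from counting alone.

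MiRNAs known from the response to LPS and from macrophage tolerance were set beside the pair. Of 17 names, 13 were listed, and of the 10 with a mean of at least 10 in wild-type cells, 3 were at least 1.5-fold higher with LPS and 0 lower (8.04% and 6.25% over all mature miRNAs tested), with a median log2 ratio of 0.26 (-0.17 over all). The 3 were miR-146a-5p (2.91) and miR-146b-5p (1.65), which dampen signalling from Toll-like receptors, and miR-125a-5p (0.62). MiR-222-3p, at 0.69, lay between the last of these and miR-146b-5p. In 5-LOΔ cells, 2 of 9 were higher (miR-146a-5p at 2.57 and miR-146b-5p at 1.87) and 1 was lower (miR-9-5p at -0.90), beside 7.76% and 20.7% over all, with a median of -0.042 (-0.19 over all). MiR-155-5p, an miRNA of macrophage activation, had log2 ratios of 0.10 and -0.064, in the range of miR-221-3p. Between genotypes, 3 of the 10 were higher and 3 lower in 5-LOΔ cells without LPS (23.3% and 4.31% over all, median 0.41 against 0.21), and 1 higher and 3 lower with LPS (19.1% and 4.55% over all, median 0.14 against 0.13). The 3 lower in each condition were miR-99b-5p (-2.21 without and -2.19 with LPS), let-7e-5p (-1.46 and -1.66) and miR-125a-5p (-1.34 and -1.45). The paper states that these come from the same primary transcript, so they are not independent of each other. MiR-99b-5p, with means of 36.5 and 7.88 without LPS and 34.3 and 7.55 with LPS, reached a mean of 10 in wild-type cells alone. Counts out of 9 or 10 in this list were not tested against the shares over all mature miRNAs.

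Other miRNAs known to lower CDKN1B or KIT were taken as a list of 14 names, of which 11 were listed (miR-152-3p under its older name miR-152) and 9 had a mean of at least 10. With LPS, 0 of the 9 were at least 1.5-fold higher and 1 was lower in wild-type cells, miR-152 at -0.64 (median log2 ratio -0.21), and in 5-LOΔ cells 0 were higher and 2 were lower, miR-152 at -1.07 and again miR-9-5p (median -0.32). Over all mature miRNAs the shares higher and lower were 8.04% and 6.25% in wild-type and 7.76% and 20.7% in 5-LOΔ cells, from which counts out of 9 cannot be told apart. In 5-LOΔ against wild-type cells, 1 was higher without LPS (miR-9-5p at 1.38, median 0.088) and 0 with LPS (median -0.052), and 0 were lower in either, beside shares over all of 23.3% higher and 4.31% lower without LPS and 19.1% and 4.55% with LPS. MiR-222-3p was thus above all 9 in the LPS comparison of both genotypes, whose highest log2 ratios were 0.38 and -0.015. Of the 30 other listed miRNAs placed on the X chromosome alone, 8 had a mean of at least 10 without LPS and 7 with LPS in the genotype comparison, and none was past 1.5-fold there (medians 0.043 and -0.077). By LPS, 1 of 8 was lower in wild-type cells, miR-660-5p at -0.82 (median -0.18), and 1 of 7 in 5-LOΔ cells, miR-223-5p at -0.62 (median -0.26). MiR-660-5p, with wild-type means of 11.6 without LPS and 6.11 with LPS, reached a mean of 10 without LPS alone, so its call is partly set by the change itself. The annotations used here placed 308 of the 314 names, and among the other 6 was miR-6087 (log2 0.81 and 1.44 between genotypes). Counts out of 7 or 8 are likewise not separated from the shares over all mature miRNAs, given above for each comparison.

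The entries whose pattern was most like the mean pattern of the 3p arms were sought among 59 others with a mean of at least 50 in all 4 groups. Likeness was the Euclidean distance between centred log2 shares over the 4 groups, with a median of 0.62 and a largest value of 2.55. The nearest were miR-3607-5p (0.355), miR-3607-3p (0.356), miR-148a-3p (0.379), miR-27a-3p (0.380) and miR-1291 (0.387). The first 2 of these are the entries on the annotated snoRNA. Each 3p arm was 0.251 from the mean pattern of both, which the arms themselves define, and the arms were 0.502 apart from each other.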

How the data were processed

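Small RNA of 12 libraries was sequenced after size selection, in 4 groups taken from the sample labels. The authors trimmed the adapters, annotated the reads against hg19 with omiRas and deposited 2 tables, whose signal columns give, for every noncoding RNA, 1 averaged normalized count per genotype. The scaling and version of omiRas are not stated in the labels or methods. Deposited fold changes, p-values and FDR of the authors' own comparisons were not used. Since the tables hold means, no model was fitted across miRNAs, and reads of abundant miRNAs could not be recovered uniquely. For miR-221-5p without LPS, whose reads were unique, the genotypes were compared by an exact two-sided permutation test over libraries.

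Size factors were recovered by a search for 3 steps whose whole multiples give every mean of at most 10 within the rounding of 6 significant digits. This held for all 378, 439, 361 and 352 such values in wild-type, 5-LOΔ, wild-type with LPS and 5-LOΔ with LPS. The size factors were 1.25, 1.02 and 0.883; 1.34, 0.945 and 0.725; 1.72, 1.07 and 0.665; and 1.30, 0.835 and 0.812. For means of 10 to 20, 98.5%, 98.3%, 0% and 100% were unique, and 40.8%, 32.1%, 7.20% and 23.0% of values moved off their printed value still came out whole, so recovered reads of miR-221-5p without LPS are less certain than those of miR-222-5p. Those with LPS, at means of 20 to 40, are less certain still, as 58.8% and 70.7% of moved values came out whole there. The recovery and the intervals were tried on simulated Poisson reads around the deposited means. Of the unique recoveries at means up to 20, 100% were right in each group, and recoveries at 20 to 40 were not scored. The 95% intervals of means covered 94.9%, 92.5%, 93.4% and 95.8%, in the same order of groups. The simulation takes the Poisson variance that the intervals assume and holds no spread between cultures, so it does not test that spread. Log2 ratios have no pseudocount, and 95% counting intervals take the Poisson variance of the reads.

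The arms, their precursor entries, the nearest 5 by pattern, the nearest 3 above and below by abundance and the listed members of the lists were named. The arms were taken by name, but this pair and the lists were chosen as subjects with earlier results of these data known. Of 314 mature names, 262 matched the RefSeq table, and for the list of the X chromosome names were also placed by the gene symbols of GENCODE hairpins. Other scalings, pseudocounts, precursor entries, minimum means, a 2-fold limit and leaving out single libraries were tried. Values were computed in Python 3.11.15 with pandas 2.3.3 and numpy 2.4.6, and with scipy 1.17.1, and plotted with matplotlib 3.10.9.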

Additional observations from a re-analysis of the deposited data

How the results depend on the processing

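The 3p ratio of the pair, the arm ratio of miR-221 and the difference of the genotype effect with and without LPS kept their direction under the scalings, pseudocounts or precursor entries run for each. For the arm ratio this was a pseudocount of 1 alone. Precursor entries hold nearly the same reads as the arms, and the pseudocounts were small beside the means. Neither could readily turn a ratio, and ratios within a group do not depend on scaling. Only the scalings of the difference of the genotype effect could therefore have changed a direction. Leaving out single libraries, which turned the LPS ratio of miR-221-5p in 5-LOΔ cells for 1 combination of reads, was not run for the arm ratio. The genotype comparison without LPS did not keep its direction. For miR-221-3p its log2 ratio of 0.13 became -0.042 with equal sums of all means, -0.19 with equal sums of mature miRNAs without miR-3607 and -0.096 with the median ratio, and for miR-222-3p 0.17 became -0.00012, -0.15 and -0.054. With LPS the same comparison moved to -0.48 (mature sums) and -0.40 (median ratio) for miR-221-3p, and to -0.57 and -0.49 for miR-222-3p. LPS against no LPS in wild-type cells moved to 0.024 (means as deposited) and 0.29 (median ratio) for miR-221-3p and to 0.85 (median ratio) for miR-222-3p. The means as deposited gave 0.59 for miR-222-3p, which is only just past 1.5-fold. In 5-LOΔ cells it moved to -0.0054 (all means) and -0.00063 (median ratio) for miR-221-3p, and to 0.43 under both for miR-222-3p, while the means as deposited gave -0.26 and 0.17. These shifts follow from the scaling factors, and which scaling is right was not tested. Pseudocounts, run for the genotype comparisons and the ratios, and precursor entries, run for the 3p arms, left values within their counting intervals. Leaving out single libraries gave -0.34 to 0.78 for miR-221-5p between genotypes without LPS, and for LPS against no LPS 0.75 to 1.87 in wild-type and, over both combinations of reads, -1.36 to 1.54 in 5-LOΔ cells.

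Background counts of mature miRNAs past 1.5-fold, higher and lower, depended on the settings. For genotype without LPS they were 27 and 5, and 12 and 12 by the median ratio, 18 and 2 at a minimum mean of 50, 60 and 44 at 1, and 9 and 3 at 2-fold. With LPS they were 21 and 5, then 11 and 19, 15 and 2, 52 and 49, and 6 and 4. For LPS in wild-type cells they were 9 and 7, then 11 and 3, 6 and 1, 31 and 42, and 6 and 1. In 5-LOΔ cells they were 9 and 24, then 13 and 12, 5 and 10, 25 and 55, and 8 and 7.

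No paired analysis was possible because the deposited columns are means that carry no replicate numbers. Library values of the 3p arms could not be recovered, and 2 to 4 reads limit miR-222-5p.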

Other observations

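Pairs of mature miRNAs matched to RefSeq were taken if their single genes lie within 10000 bp of each other and both had a mean of at least 10 in all groups. Among the 17 such pairs, the size of the log2 change of their ratio with LPS had a median of 0.14 in wild-type and 0.26 in 5-LOΔ cells. The ratio of miR-222-3p to miR-221-3p, at 0.56 and 0.43, was at rank 2 and rank 5. The largest change in wild-type cells was that of miR-27a-3p to miR-23a-3p, at 0.63 (0.48 in 5-LOΔ cells), and let-7e-5p to miR-125a-5p stood at -0.38 and -0.46. Several pairs share a member and are not independent.

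The precursor entry of miR-221 was 568, 621, 587 and 530 in wild-type, 5-LOΔ, wild-type with LPS and 5-LOΔ with LPS, and that of miR-222 was 210, 237, 315 and 267. Their differences from the summed arms lay between -1.89 and 0.42 normalized counts and were mostly at or below 0. The precursor entries thus hold nearly the same reads as the mature arms, or slightly fewer. A clear excess was seen for miR-222 in 5-LOΔ cells alone (0.42).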
